A study of Mus musculus with 32 samples.

Results

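The early response of thymocytes that carry the P72 form of the tumour suppressor p53 to whole-body irradiation was measured on 8 arrays. They comprised the 4 arrays of P72 thymocytes taken 2 h after irradiation and the 4 arrays of untreated P72 thymocytes (0 h), chosen by their sample titles from the 32 arrays of the series. The series compares mice with proline (P72) or arginine (R72) at codon 72 of p53 and asks how the variants act on genes of immunity and inflammation. Its other 24 arrays cover P72 at 4 h, R72 at 0, 2 and 4 h, and mice labelled p53+/+ and p53-/- at the same times. All mice were C57Bl/6 and 6 weeks old, and irradiated mice received 5 Gy of gamma rays. P72 at 2 h comprised 4 independent experiments, as did P72 at 0 h, and each sample pooled the thymocytes of 2 mice of 1 genotype. R72 had 4 arrays at 2 h and 4 at 0 h, p53+/+ had 1 array at 2 h and 2 at 0 h, and p53-/- had 1 array at 2 h and 2 at 0 h. The labels do not say how the P72 and R72 alleles were made, and the 0 h mice are described as untreated, with no mention of sham irradiation.

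The protein p53 is a transcription factor that is held at a low level by the ubiquitin ligase Mdm2 and accumulates when kinases sense DNA breaks. It then activates genes of cell cycle arrest, DNA repair and cell death, and lowers many genes of cell division indirectly, through the inhibitor p21 and repressor complexes at their promoters. Thymocytes, the T cell precursors of the thymus, die by p53-dependent apoptosis within hours of irradiation, and most of them are CD4+ CD8+ double positive cells that rearrange their T cell receptor genes.

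Levels are given as log2 signal relative to the 75th percentile of each array. Values of 4 arrays are given in the order of the replicate numbers. Changes are log2 differences, 2 h minus 0 h, and the value after ± is limma's standard error, and adjusted p-values are limma's with Benjamini-Hochberg adjustment over all genes tested. The 75th percentile of the signal was 278 to 516 fluorescence units on the 2 h arrays and 393 to 726 on the 0 h arrays, and no spot was saturated. Probes well above background made up 59.7% to 65.4% of all probes at 2 h and 60.2% to 62.5% at 0 h. The correlation across probes between arrays of 1 group was 0.9865 to 0.9907 at 2 h and 0.9873 to 0.9915 at 0 h. RNA came from whole preparations, in which fewer cells of a type and less RNA per cell cannot be told apart.

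The arrays carried the markers of the labelled cell type. Dntt, the terminal transferase of receptor gene rearrangement, stood at 8.43, 8.56, 8.48 and 8.71 at 2 h, against 8.31, 8.49, 8.71 and 8.82 at 0 h. Rag1, the recombinase, stood at 7.21, 7.13, 7.46 and 7.19 at 2 h, against 7.26, 6.99, 7.02 and 7.17 at 0 h. The arrays of both genes overlapped between the times. Cd8a, a co-receptor chain, stood at 7.15, 7.40, 7.08 and 7.37 at 2 h, against 7.16, 7.16, 7.21 and 7.02 at 0 h, and its change was 0.11 ± 0.11 (adjusted p = 0.526). The summed level of 24 double positive thymocyte markers was 1430 to 1680 times the 75th percentile at 2 h and 1390 to 1630 times at 0 h. The labels put 1 male and 1 female in each pool, and the arrays went against this. The X-inactivation transcript Xist stood at -7.26, 5.19, -6.22 and 5.60 at 2 h, against -7.81, 5.29, -7.92 and 5.67 at 0 h, and the Y-linked gene Eif2s3y at 2.09, -7.58, 2.16 and -6.87 at 2 h, against 1.82, -7.89, 1.79 and -7.73 at 0 h. Replicates 1 and 3 were therefore low for Xist and replicates 2 and 4 high, in the same numbers at both times. All 1939 genes called up were higher and all 979 called down were lower at 2 h both within replicates 1 and 3 and within replicates 2 and 4. The calls were made on these same 8 arrays, so the shared direction was largely set in advance. It is no test of an effect of sex. Trp53 itself, which encodes p53, stood at 0.37, 0.27, 0.10 and 0.38 at 2 h, against 0.09, 0.13, 0.29 and 0.36 at 0 h, with a change of 0.06 ± 0.17 (adjusted p = 0.844). A second, dimmer probe gave a change of 1.04, past the threshold (adjusted p = 0.0272) when the probe of smallest p stood for each gene. The 2 probes of Trp53 thus disagree.

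At 2 h, 1939 of the 19790 genes tested had risen and 979 had fallen, which is 9.8% and 4.95% of them (limma, adjusted p under 0.05). With this scaling the larger changes ran mostly upward: 937 genes (4.73%) rose and 63 genes (0.318%) fell by at least 2-fold. Fewer genes rose at any size with other processing, 306 after normexp background correction, where 187 fell, and 921 with the authors' tabulated values. The 4 arrays at 2 h all lay above the 4 at 0 h for 2722 genes (13.8%) and all below them for 1673 genes (8.45%). The median change over all genes was 0.05, and it was -0.16 when arrays were centred on their median instead. Rises made up 66.4% of the calls here, against 56% after quantile normalization, 51% with the authors' tabulated values and 28.6% after centring on the median, where 1201 genes rose and 3000 fell. The direction of small changes thus depended on the scaling, and each gene below said to have risen or fallen at 2 h kept its direction under these scalings and after normexp background correction. Of 177 called genes examined singly, 77 lost the call with normexp, 13 with quantile normalization, 18 with median centring and 17 with the authors' values, and those named are given with the new change in parentheses. Without replicate 1 of the 0 h arrays 1210 genes rose, and without replicate 4 of the 0 h arrays 607 fell.

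**Figure D1:**
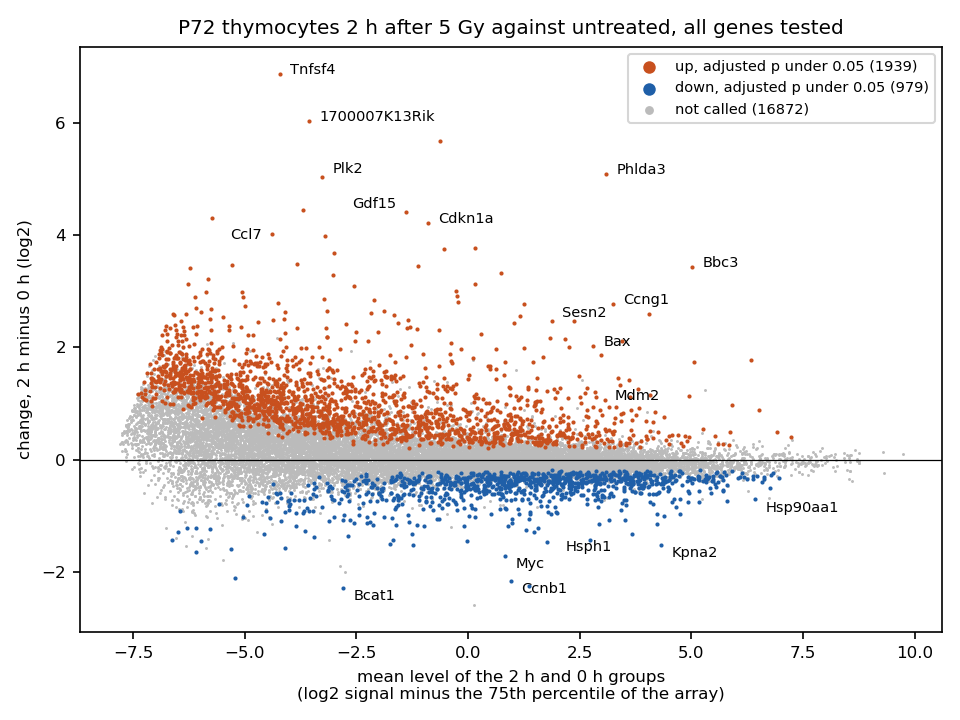
Change of each gene at 2 h against 0 h (vertical axis, log2) by its mean level over the 8 arrays (horizontal axis, log2 signal relative to the 75th percentile of the array). Each point is a gene, with the 1939 called up and the 979 called down in colour over the genes not called, and rises reach further from 0 than falls. Genes not above background at 0 h, such as Tnfsf4, are drawn at their fitted change.

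Among relatives of Bcl2 that promote cell death, 3 known direct p53 targets, Bbc3, Pmaip1 and Bax, rose by several-fold. Bbc3, which encodes PUMA, an activator of Bax at the mitochondrial membrane, stood at 6.75, 6.64, 6.83 and 6.71 at 2 h, against 3.48, 3.21, 3.20 and 3.29 at 0 h, and rose by 3.44 ± 0.09 (adjusted p = 1.27e-16). Pmaip1, which encodes NOXA, stood at 2.36, 2.27, 2.29 and 2.71 at 2 h, against -1.34, -0.56, -0.85 and -0.92 at 0 h, and rose by 3.33 ± 0.19 (adjusted p = 6.04e-11). Bax, the pore-forming effector, stood at 3.72, 3.84, 3.90 and 3.82 at 2 h, against 1.89, 1.71, 1.85 and 1.72 at 0 h, and rose by 2.03 ± 0.11 (adjusted p = 3.53e-11). In all 3 genes every 2 h array lay above every 0 h array. Bcl2l11, which encodes BIM, an activator that is not a classical p53 target, stood at 3.61, 3.77, 3.50 and 3.53 at 2 h, against 3.22, 3.07, 2.84 and 2.65 at 0 h and rose by 0.65 ± 0.11 (adjusted p = 0.000441). Bok, a Bax relative, rose by 1.17, a call that ended without any 1 of 6 arrays, for example at 1.02 (adjusted p = 0.0822) without replicate 1 of the 0 h arrays. Bid, which links death receptors to the mitochondrion, fell by 0.40, and its change was -0.31 (adjusted p = 0.0544) without replicate 1 of the 2 h arrays. Of the other 4 members, Bak1 changed by -0.12 ± 0.09 (adjusted p = 0.418), Bmf by -0.22 ± 0.21 (adjusted p = 0.529), Bad by 0.41 ± 0.14 (adjusted p = 0.0506) and Bik by 0.32 ± 0.34 (adjusted p = 0.576). A second probe of Bak1 gave a change of 0.53, against the -0.12 of the probe used. In all, 5 of the 10 members tested rose and 1 fell, beside 9.8% and 4.95% of all genes, and their median change was 0.53. Their summed level was 144 to 158 times the 75th percentile at 2 h and 34.1 to 38.8 times at 0 h. This sum is of linear signal, so Bbc3, by far the brightest member at 2 h, weighs most in it. The call ended for Bok (0.79) and Bid (-0.37) with normexp.

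The opposing survival members of the family were near their 0 h levels. Bcl2 stood at 2.98, 2.79, 2.57 and 2.85 at 2 h, against 2.70, 3.07, 2.84 and 2.95 at 0 h. Mcl1 stood at 5.32, 5.15, 5.05 and 5.13 at 2 h, against 5.28, 5.36, 5.22 and 5.13 at 0 h. The arrays of both genes overlapped between the times, with changes of -0.09 ± 0.13 (adjusted p = 0.667) for Bcl2 and -0.09 ± 0.08 (adjusted p = 0.508) for Mcl1. Bcl2l1 (Bcl-xL) changed by -0.02 ± 0.13 (adjusted p = 0.953) and Bcl2l2 by -0.18 ± 0.15 (adjusted p = 0.467). Bcl2a1b was the 1 of 5 survival members that rose, by 0.66, and its change was 0.55 (adjusted p = 0.0736) without replicate 1 and 0.57 (adjusted p = 0.0663) without replicate 4 of the 0 h arrays. Their summed level was 48.5 to 58.1 times the 75th percentile at 2 h and 50 to 59.2 times at 0 h. Bcl2a1b (0.61) with normexp, and Bcl2a1b (0.45) with median centring lost the call.

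In the death receptor and caspase pathways 6 of 21 genes rose and 1 fell, and the rises included receptors and activating platforms. Pidd1, the scaffold of the caspase-2 platform, stood at 2.11, 2.18, 2.25 and 2.46 at 2 h, against -0.34, -0.29, 0.07 and -0.15 at 0 h, and rose by 2.43 ± 0.14 (adjusted p = 6.23e-11), with 2.26 and 0.59 from its other probes. Apaf1, the core of the apoptosome that activates caspase-9, stood at 2.75, 2.76, 3.33 and 2.81 at 2 h, against 0.84, 0.63, 0.74 and 0.74 at 0 h, and rose by 2.17 ± 0.14 (adjusted p = 1.06e-09). The groups did not overlap in either gene, and replicate 3 of the 2 h arrays was the highest for Apaf1. Fas, a death receptor, stood at 4.63, 4.74, 4.84 and 4.82 at 2 h, against 4.02, 4.03, 4.00 and 3.96 at 0 h, and rose by 0.75 ± 0.09 (adjusted p = 9.54e-06). Its ligand Fasl rose by 0.65, with dim levels of -2.88 to -2.67 at 2 h against -3.57 to -3.21 at 0 h. Tnfrsf10b, the mouse TRAIL receptor, rose by 1.66 and was well above background on all 4 arrays at 2 h and on 3 at 0 h. The median change of the 21 genes was 0.08, close to the 0.05 of all genes, and under normexp and the other scalings it lay at -0.13 to 0.10. Calls were lost for Fasl (0.39) and Tnfrsf10b (0.53) with normexp, Fasl (0.47) with quantile normalization, Fasl (0.44) with median centring, and Fasl (0.30) with the authors' values.

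Other p53 targets linked to cell death rose more often, 10 of 17, while 0 fell (limma, 0 at an unadjusted p under 0.05), with a median change of 0.68. Phlda3, which restrains the survival kinase Akt, stood at 5.53, 5.69, 5.60 and 5.72 at 2 h, against 0.57, 0.60, 0.62 and 0.37 at 0 h, and rose by 5.09 ± 0.10 (adjusted p = 3.75e-18). Plk2, a polo-like kinase, stood at -0.95, -0.83, -0.50 and -0.74 at 2 h, against -6.46, -4.87, -5.34 and -6.46 at 0 h, and rose by 5.03 ± 0.28 (adjusted p = 4.8e-11), with all 4 arrays well above background at 2 h and 2 of 4 at 0 h. Aen, a nuclease that enhances apoptosis, stood at 5.33, 5.35, 5.32 and 5.41 at 2 h, against 2.52, 2.74, 2.92 and 2.89 at 0 h, and rose by 2.59 ± 0.11 (adjusted p = 4.7e-13). All 3 separated the times completely. Zmat3, an RNA-binding zinc finger protein, rose by 2.23 and Ei24, a protein of the endoplasmic reticulum, by 2.00. Trp53inp1, a p53 cofactor, stood at 7.06, 7.11, 7.17 and 7.31 at 2 h, against 6.61, 6.6, 6.70 and 6.74 at 0 h, and rose by 0.50. Tnfrsf18 (GITR), a receptor on T cells, stood at 4.52, 4.51, 4.31 and 4.59 at 2 h, against 3.71, 3.85, 3.92 and 3.75 at 0 h, and rose by 0.68 ± 0.07 (adjusted p = 2.22e-06). The count of 10 was unchanged without any 1 of the 8 arrays. The threshold was missed by Trp53inp1 (0.44) with normexp.

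**Figure D2:**
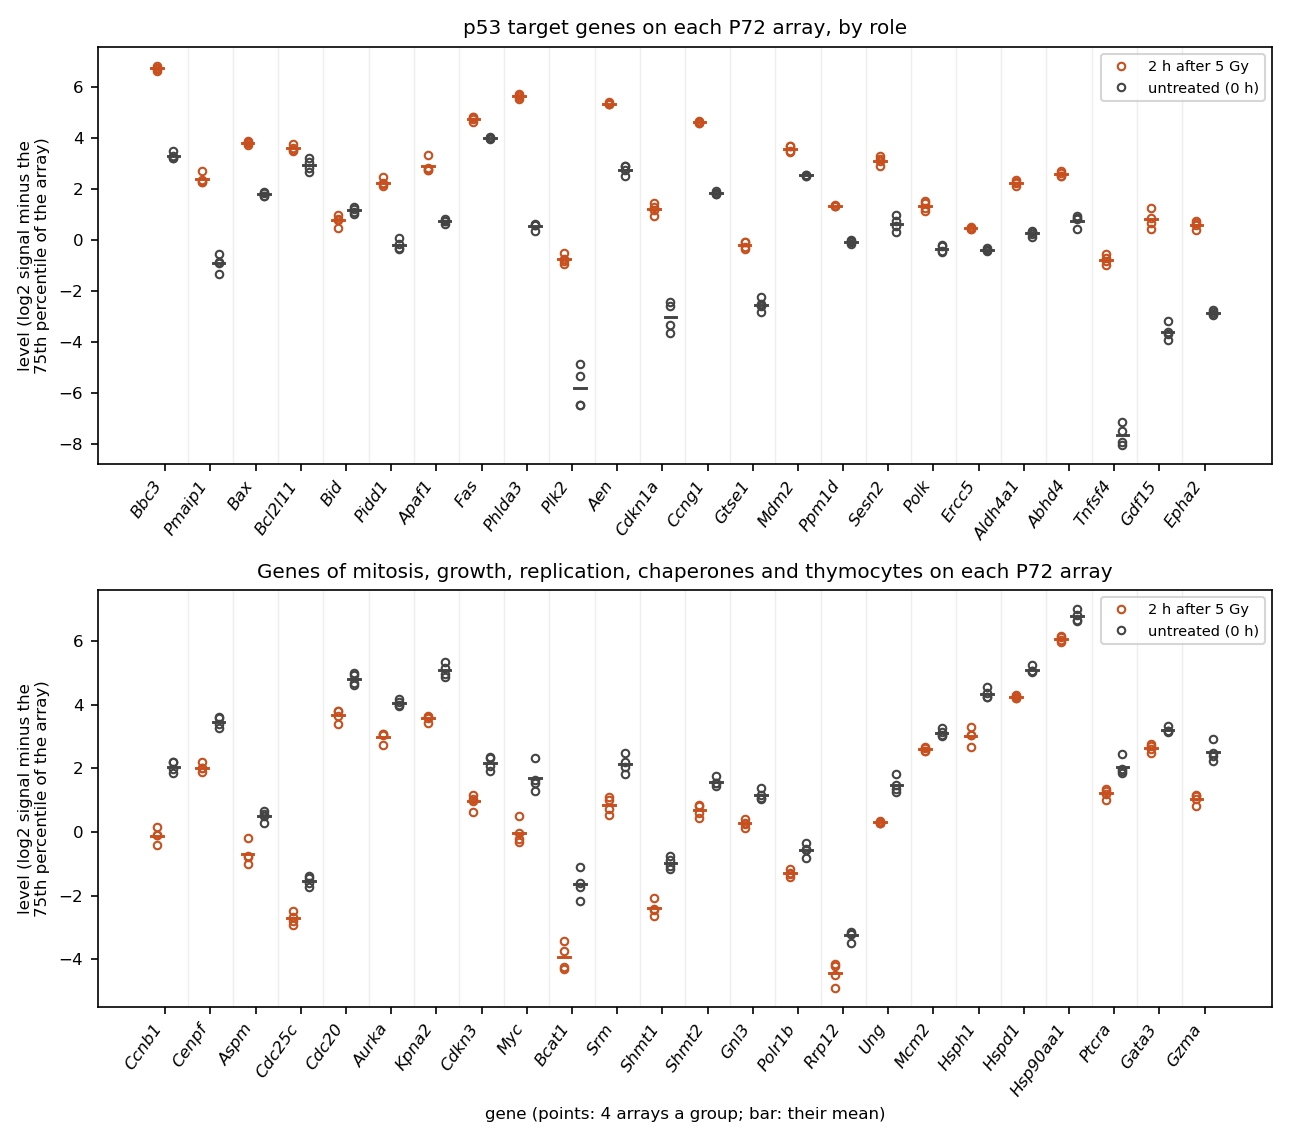
Level on each array (vertical axis, log2 signal relative to the 75th percentile of the array) of 24 p53 target genes (upper panel) and of 24 genes of mitosis, growth, replication, chaperones and thymocytes (lower panel). In each panel the 4 arrays at 2 h are drawn beside the 4 at 0 h. Targets such as Phlda3 and Bbc3 lie far higher at 2 h, while Ccnb1 and Gzma lie lower.

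Genes of cell cycle arrest rose in 9 of 14 cases and 1 fell, with a median change of 0.50. Cdkn1a, which encodes the cyclin-dependent kinase inhibitor p21, stood at 1.16, 1.44, 0.93 and 1.28 at 2 h, against -3.66, -2.45, -2.59 and -3.32 at 0 h, and rose by 4.21 ± 0.24 (adjusted p = 7.23e-11). Ccng1 (cyclin G1), which acts on p53 through Mdm2, stood at 4.68, 4.63, 4.61 and 4.6 at 2 h, against 1.94, 1.82, 1.84 and 1.82 at 0 h, and rose by 2.77 ± 0.11 (adjusted p = 3.45e-13). The times did not overlap in either gene, and Cdkn1a was lowest on replicate 1 of the 0 h arrays. Psrc1 and Gtse1, both proteins of microtubules, rose by 2.46 and 2.35. Cgref1, a growth regulator, was well above background on all 4 arrays at 2 h and on none at 0 h, which put it at least 2.42-fold higher (adjusted p = 0.000149). E2f7, a repressor of E2F target genes, stood at 1.07, 1.27, 1.44 and 1.4 at 2 h, against 0.51, 0.27, 0.67 and 0.54 at 0 h, and rose by 0.80 ± 0.13 (adjusted p = 0.000398). Of the regulators that act back on p53, 4 of 17 rose and 1 fell, with a median of 0.09. Mdm2, the ligase that degrades p53, stood at 3.71, 3.49, 3.44 and 3.70 at 2 h, against 2.54, 2.57, 2.51 and 2.51 at 0 h, and rose by 1.05 ± 0.12 (adjusted p = 3.52e-06). Ppm1d, the phosphatase WIP1 that switches damage signalling off, stood at 1.33, 1.34, 1.39 and 1.33 at 2 h, against 0.00, -0.09, -0.17 and -0.05 at 0 h, and rose by 1.43 ± 0.07 (adjusted p = 1.66e-11). Both genes separated the times on every array. The call ended for Cgref1 with normexp, and Cgref1 with the authors' values.

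Promoters of 3 of these genes are shown for their sites, because each holds at least 1 p53 half-site. The p53 half-site was searched by its usual degenerate letters on both strands from 250 bases before to 50 bases after each annotated start (RefSeq, build GRCm38.p6), and half-sites are in capitals.
Cdkn1a promoter, chr17:29090729-29090978, + strand: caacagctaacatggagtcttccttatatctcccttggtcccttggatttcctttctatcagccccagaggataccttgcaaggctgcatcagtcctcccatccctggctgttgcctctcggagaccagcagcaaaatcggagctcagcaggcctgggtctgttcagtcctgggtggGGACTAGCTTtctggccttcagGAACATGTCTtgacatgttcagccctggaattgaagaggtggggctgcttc
Mdm2 promoter, chr10:117710759-117711008, - strand: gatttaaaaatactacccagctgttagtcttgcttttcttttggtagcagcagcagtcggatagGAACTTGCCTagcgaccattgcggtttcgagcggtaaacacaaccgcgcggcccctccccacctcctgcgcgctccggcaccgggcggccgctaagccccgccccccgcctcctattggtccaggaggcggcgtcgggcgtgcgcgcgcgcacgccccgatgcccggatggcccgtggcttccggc
Ccng1 promoter, chr11:40755287-40755536, - strand: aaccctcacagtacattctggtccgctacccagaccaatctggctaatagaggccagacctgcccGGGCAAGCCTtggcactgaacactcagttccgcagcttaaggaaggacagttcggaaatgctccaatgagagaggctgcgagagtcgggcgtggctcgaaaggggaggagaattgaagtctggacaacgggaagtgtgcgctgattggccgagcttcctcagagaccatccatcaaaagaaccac
The windows printed are the 250 bases before the start. The pair of half-sites in Cdkn1a formed a full site when a spacer of up to 13 bases was allowed, which 24 of 32851 promoters in the table (0.0731%) did. A single half-site was found in 8.36% of the promoters of all tested genes with an entry, in 11.1% of those of genes that rose and in 6.94% of those of genes that fell. Among the genes that rose and rose more than in p53-/- thymocytes it was found in 36 of 209 (17.2%). These matches are letters in a window and show no binding, and p53 sites of many targets lie outside it.

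DNA repair genes among p53 targets rose in 7 of 16 cases and 1 fell, with a median of 0.15. Sesn2, a sestrin that responds to oxidative stress, stood at 3.11, 3.18, 2.90 and 3.29 at 2 h, against 0.74, 0.99, 0.55 and 0.30 at 0 h, and rose by 2.47 ± 0.14 (adjusted p = 4.52e-11), with 1.20 from a second probe. Polk, a polymerase that copies past damaged bases, stood at 1.53, 1.44, 1.14 and 1.25 at 2 h, against -0.25, -0.21, -0.41 and -0.48 at 0 h, and rose by 1.67 ± 0.11 (adjusted p = 1.41e-09). Ercc5, the nuclease XPG of excision repair, stood at 0.44, 0.51, 0.48 and 0.44 at 2 h, against -0.33, -0.39, -0.44 and -0.39 at 0 h, and rose by 0.85 ± 0.06 (adjusted p = 3.83e-09). The times did not overlap in these 3 genes. Mgmt, which removes alkyl groups from guanine, rose by 0.83, and Gadd45a, which binds the replication clamp, by 0.63. Among p53 targets of metabolism 9 of 22 rose and 0 fell (limma, 2 at an unadjusted p under 0.05), with a median of 0.36. Aldh4a1, an enzyme of proline breakdown, stood at 2.28, 2.37, 2.25 and 2.12 at 2 h, against 0.34, 0.24, 0.33 and 0.13 at 0 h, and rose by 1.99 ± 0.08 (adjusted p = 1.58e-13). Slc19a2, a thiamine transporter, rose by 1.73, Abhd4, a lipid hydrolase, by 1.82 and Lpin1, a phosphatidate phosphatase, by 0.93. Cpt1c and Ddit4l were well above background on 1 array at 2 h and on none at 0 h, and were at least 1.19-fold and at least 1.26-fold higher. The 1 repair gene that fell was the damage sensor Xpc, and that call, -0.22, ended without any 1 of 7 arrays, for example at -0.18 (adjusted p = 0.122) without replicate 1 of the 0 h arrays. Mgmt (0.43), Cpt1c, Ddit4l and Xpc (-0.27) with normexp, Xpc (-0.18) with quantile normalization, and Ddit4l and Xpc (-0.19) with the authors' values lost the call. With normexp the repair genes that rose numbered 4 and the metabolic targets that rose numbered 4, and with median centring the metabolic targets that fell numbered 4.

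Secreted factors and surface receptors known as p53 targets rose in 14 of 18 cases while 0 fell (limma, 0 at an unadjusted p under 0.05). Their median change was 1.43, 1.07 with the genes not above background at a time set to their lower bounds, and 0.42 to 1.22 under normexp and the other scalings. Tnfsf4 (OX40 ligand), a co-stimulatory ligand, stood at -1.0, -0.82, -0.56 and -0.72 at 2 h, against -7.92, -7.51, -8.03 and -7.15 at 0 h. It was well above background on every 2 h array and on no 0 h array, and was at least 31.7-fold higher (adjusted p = 3.04e-13). Gdf15, a stress cytokine, stood at 1.27, 0.41, 0.69 and 0.88 at 2 h, against -3.18, -3.90, -3.61 and -3.69 at 0 h, and rose by 4.41 ± 0.27 (adjusted p = 3.26e-10). Epha2, a receptor tyrosine kinase, stood at 0.60, 0.74, 0.65 and 0.39 at 2 h, against -2.94, -2.75, -2.89 and -2.81 at 0 h, and rose by 3.44 ± 0.16 (adjusted p = 4.43e-12). In Gdf15 replicate 1 of the 2 h arrays was highest and the times did not overlap in either gene. Ccn1, a matrix protein, stood at -1.42, -1.46, -1.38 and -1.62 at 2 h, against -6.63, -5.68, -5.56 and -5.83 at 0 h, not well above background on any 0 h array, which put it at least 18-fold higher (adjusted p = 4.52e-11). Hbegf, a ligand of the EGF receptor, stood at -3.05, -3.01, -2.96 and -2.89 at 2 h, against -5.44, -5.07, -4.93 and -5.51 at 0 h, and rose by 2.26 ± 0.19 (adjusted p = 3.98e-08). Plaur, the urokinase receptor, stood at -0.25, 0.00, -0.78 and -0.87 at 2 h, against -2.47, -1.96, -2.42 and -2.35 at 0 h, and rose by 1.83 ± 0.16 (adjusted p = 9.54e-08). Thbs1 (thrombospondin) was measured above background on 3 arrays at 2 h and on none at 0 h, which put it at least 2.93-fold higher, and its other probes changed by 0.60 and 1.65. Apart from Gdf15 and Epha2, none of these genes exceeded the 75th percentile on any 2 h array. Without replicate 1 of the 0 h arrays, 11 genes of the list were called up. Calls were lost for Hbegf (0.92) and Thbs1 with normexp. With normexp the secreted and surface genes that rose numbered 6, and with the authors' values the secreted and surface genes that rose numbered 9.

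Several of the 25 genes that rose most belong to none of these lists. Dglucy, which encodes D-glutamate cyclase, stood at 1.98, 2.11, 1.81 and 2.28 at 2 h, against -1.91, -1.61, -1.59 and -1.77 at 0 h, and rose by 3.76 ± 0.12 (adjusted p = 1.2e-14). Bfsp2, an intermediate filament gene known from the lens, stood at 1.74, 1.83, 1.41 and 1.91 at 2 h, against -1.65, -1.23, -1.36 and -1.37 at 0 h, and rose by 3.13 ± 0.19 (adjusted p = 3.26e-10). Inka2, an inhibitor of a p21-activated kinase, stood at 1.12, 1.27, 1.18 and 1.38 at 2 h, against -1.70, -1.73, -1.86 and -1.80 at 0 h, and rose by 3.01 ± 0.08 (adjusted p = 4.78e-16). The 25 were chosen among called genes whose arrays did not overlap between the times, so the separation in these 3 was set in advance. Another probe of Bfsp2 changed by only 0.43. The transcripts 9230114K14Rik and 2900052L18Rik rose by 3.75 and 3.98, and 1700007K13Rik was at least 37.4-fold higher. Mybpc2, a myosin-binding protein of fast muscle, rose by 3.48 and was well above background on all 2 h arrays but on only 2 of 4 at 0 h. Zfp365, Zfp750, Dnm3 and Cd109 were above background at 2 h alone and were at least 4.5-fold, 4.25-fold, 2.63-fold and 2.08-fold higher. The threshold was missed by Zfp365, Zfp750, Dnm3 and Cd109 with normexp.

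Genes of the G2 phase and mitosis fell together: 40 of the 53 tested fell and 0 rose (limma), beside 4.95% and 9.8% of all genes, and 0 rose at an unadjusted p under 0.05. Their median change was -0.66, and their summed level was 462 to 604 times the 75th percentile at 2 h and 669 to 821 times at 0 h. Ccnb1, cyclin B1, which drives entry into mitosis, stood at -0.41, -0.10, 0.14 and -0.10 at 2 h, against 1.96, 1.84, 2.20 and 2.18 at 0 h, and fell by 2.16 ± 0.18 (adjusted p = 2.91e-08). Cenpf, a kinetochore protein, stood at 1.88, 2.01, 2.20 and 2.00 at 2 h, against 3.39, 3.28, 3.57 and 3.61 at 0 h, and fell by 1.44 ± 0.16 (adjusted p = 1.68e-06). Aurka, the spindle kinase Aurora A, stood at 2.73, 3.06, 3.07 and 3.04 at 2 h, against 3.98, 3.96, 4.07 and 4.18 at 0 h, and fell by 1.07 ± 0.12 (adjusted p = 1.94e-06). No 2 h array reached a 0 h array in these 3 genes. Cdc20, the activator of the anaphase-promoting complex, stood at 3.38, 3.64, 3.81 and 3.81 at 2 h, against 4.68, 4.63, 5.00 and 4.93 at 0 h, and fell by 1.15 ± 0.16 (adjusted p = 4.12e-05). Kpna2, an importin of the nuclear pore pathway, stood at 3.42, 3.64, 3.61 and 3.59 at 2 h, against 4.87, 4.96, 5.16 and 5.35 at 0 h, and fell by 1.52 ± 0.13 (adjusted p = 4.82e-08). The phosphatase Cdc25c, which activates the mitotic kinase, fell by 1.17, and the spindle pole gene Aspm by 1.18. Among genes outside the list, the cytoskeletal linker Gas2l3 fell by 1.5, the phosphatase Cdkn3 by 1.21 and the centrosomal gene Cep89 by 1.26. The number of mitosis genes that fell was 27 to 45 when single arrays were left out. The call ended for Cdc25c (-0.74) with normexp. With normexp the mitosis genes that fell numbered 23.

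Promoters of 3 mitosis genes are shown because their proximal bases carry short motifs typical of this class. Ccnb1 held CCAAT boxes but no cell cycle homology motif TTTGAA. The cell cycle homology motif TTTGAA and the CCAAT box were searched on both strands of the same windows, could overlap each other by no more than an end base, and are in capitals (RefSeq, build GRCm38.p6, 120 bases each).
Cdc20 promoter, chr4:118437344-118437463, - strand: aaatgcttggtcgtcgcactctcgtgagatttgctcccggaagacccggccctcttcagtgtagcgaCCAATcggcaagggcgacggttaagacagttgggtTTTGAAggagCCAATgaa
Kpna2 promoter, chr11:106999526-106999645, - strand: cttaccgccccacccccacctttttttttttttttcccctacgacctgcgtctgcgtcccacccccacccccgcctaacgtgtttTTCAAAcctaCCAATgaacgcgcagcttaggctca
Ccnb1 promoter, chr13:100786487-100786606, - strand: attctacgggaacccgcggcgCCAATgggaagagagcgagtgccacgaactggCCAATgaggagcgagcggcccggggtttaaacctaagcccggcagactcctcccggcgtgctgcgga
Of the 44 mitosis genes with an entry, 30 (68.2%) held TTTGAA and 34 (77.3%) held CCAAT, against 15.4% and 42.1% of all tested genes with an entry. Among the mitosis genes that fell, 23 of 33 (69.7%) held TTTGAA, so the genes that fell did not stand out from the list as a whole. Over all 720 promoters of genes that fell, TTTGAA was found in 19.4% and CCAAT in 45.8%. The p53 half-site was found in 9.09% of the mitosis promoters, beside 8.36% of all.

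Myc encodes a transcription factor of ribosome and metabolite synthesis. In the list of Myc and genes of ribosome production and growth 22 of 40 also fell and 2 rose, with a median of -0.35. Myc itself stood at -0.32, -0.24, 0.50 and -0.04 at 2 h, against 1.28, 1.55, 1.62 and 2.32 at 0 h, and fell by 1.71 ± 0.33 (adjusted p = 0.00139). Srm, spermidine synthase, stood at 0.71, 1.09, 0.54 and 1.02 at 2 h, against 1.81, 2.05, 2.19 and 2.47 at 0 h, and fell by 1.29 ± 0.16 (adjusted p = 1.2e-05). Gnl3 (nucleostemin), a nucleolar protein, stood at 0.29, 0.41, 0.25 and 0.13 at 2 h, against 1.03, 1.07, 1.14 and 1.39 at 0 h, and fell by 0.89 ± 0.10 (adjusted p = 2.22e-06). The times did not overlap in any of the 3, and Myc was the most variable, with its highest 0 h level in replicate 4 and its highest 2 h level in replicate 3. Shmt1 and Shmt2, the cytosolic and mitochondrial enzymes of serine and glycine exchange, fell by 1.43 and 0.89, and a second probe of Shmt1 gave -0.50. Polr1b, a subunit of RNA polymerase I, fell by 0.74, the translation factor Eif5a by 0.61 and the ribosome assembly gene Rrp12, from outside the list, by 1.19. Bcat1, an aminotransferase of branched amino acids, stood at -4.24, -4.31, -3.44 and -3.76 at 2 h, against -2.17, -1.61, -1.73 and -1.10 at 0 h, and fell by 2.28 ± 0.42 (adjusted p = 0.000852). The E-box CACGTG, to which Myc and related factors bind, was found in 9 of 34 promoters of the list (26.5%), in 14.4% of those of genes that fell and in 10.8% of those of all tested genes. The sterol-linked gene Tmem97, which is not on the list, fell by 1.18. Shmt1 (-0.94), Polr1b (-0.52), Rrp12 (-0.30) and Bcat1 (-1.0) with normexp lost the call. With normexp the growth genes that fell numbered 9.

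Replication genes of the G1 to S transition changed less at 2 h, with 4 of 48 (8.33%) falling, 1 (2.08%) rising and a median of -0.16. Of all genes, 4.95% fell and 9.8% rose. Ung, a glycosylase that removes uracil from DNA, stood at 0.29, 0.34, 0.28 and 0.28 at 2 h, against 1.35, 1.26, 1.49 and 1.82 at 0 h, and fell by 1.18 ± 0.15 (adjusted p = 1.18e-05). Mcm2, a subunit of the replicative helicase, stood at 2.55, 2.65, 2.54 and 2.65 at 2 h, against 3.14, 3.03, 3.01 and 3.26 at 0 h, and fell by 0.51 ± 0.11 (adjusted p = 0.00273). Orc1, of the origin recognition complex, fell by 0.48. The 2 h arrays were below the 0 h arrays throughout in these 3 genes. The calls of Chaf1a (-0.32) and of Prim1 (0.37), the primase subunit and the 1 gene that rose, each ended without single arrays, at -0.23 (adjusted p = 0.133) without replicate 1 of the 2 h arrays for Chaf1a and at 0.31 (adjusted p = 0.0891) without replicate 1 of the 0 h arrays for Prim1. In DNA damage signalling 5 of 32 genes fell and 1 rose, with a median of -0.04. Parp1, which marks strand breaks, stood at 1.62, 1.79, 1.84 and 1.67 at 2 h, against 2.07, 2.15, 2.08 and 2.12 at 0 h, and fell by 0.38 ± 0.07 (adjusted p = 0.00179). Rad52, a recombination gene, rose by 0.37. The changes of Chek1 (-0.52), Bard1 (-0.48), Nbn (-0.46) and H2ax (-0.43) each lost their call when any 1 of at least 3 arrays was left out, for example without replicate 4 of the 0 h arrays, with adjusted p of 0.116, 0.058, 0.12 and 0.0789. Calls were lost for Orc1 (-0.32), Chaf1a (-0.28), Prim1 (0.36), Parp1 (-0.42), Rad52 (0.36), Chek1 (-0.44), Bard1 (-0.11), Nbn (-0.43) and H2ax (-0.46) with normexp, Chaf1a (-0.30), Bard1 (-0.66) and H2ax (-0.36) with quantile normalization, Prim1 (0.16) and Rad52 (0.16) with median centring, and Chaf1a (-0.27) and H2ax (-0.32) with the authors' values. With normexp the replication genes that fell numbered 2 and the damage signalling genes that fell numbered 0, with quantile normalization the damage signalling genes that fell numbered 3, and with median centring the replication genes that fell numbered 14 and the damage signalling genes that fell numbered 11.

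Chaperone genes fell in 18 of 32 cases and 2 rose, with a median of -0.40. The summed level of the 32 genes was 482 to 511 times the 75th percentile at 2 h and 662 to 716 times at 0 h. Hsph1, a nucleotide exchange factor of Hsp70, stood at 3.28, 3.05, 2.66 and 3.04 at 2 h, against 4.54, 4.36, 4.25 and 4.24 at 0 h, and fell by 1.34 ± 0.27 (adjusted p = 0.00182). Hspd1 (Hsp60), the mitochondrial chaperonin, stood at 4.19, 4.31, 4.21 and 4.26 at 2 h, against 5.06, 5.04, 5.03 and 5.23 at 0 h, and fell by 0.85 ± 0.12 (adjusted p = 4.81e-05). Hsp90aa1, a cytosolic Hsp90, stood at 5.96, 6.03, 6.14 and 6.16 at 2 h, against 6.64, 6.64, 6.82 and 7.0 at 0 h, and fell by 0.71 ± 0.12 (adjusted p = 0.000392). All 3 were bright, and all 4 arrays at 2 h were below all 4 at 0 h. Its partner Hsp90ab1 fell by 0.57, the Hsp40 gene Dnaja1 by 0.71 and the mitochondrial Hsp70 Hspa9 by 0.64. The 2 genes that rose were the small heat shock genes Hspb8 (1.32) and Hspb1 (1.24), both dim and both lowest on replicate 1 of the 0 h arrays. Hspb1, named after its values were seen, had a change of 0.96 (adjusted p = 0.0599) without that array and 1.07 (adjusted p = 0.0509) without replicate 1 of the 2 h arrays. The threshold was missed by Hsp90ab1 (-0.61), Dnaja1 (-0.72), Hspb8 (0.64) and Hspb1 (0.77) with normexp. With normexp the chaperone genes that fell numbered 7.

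**Figure D3:**
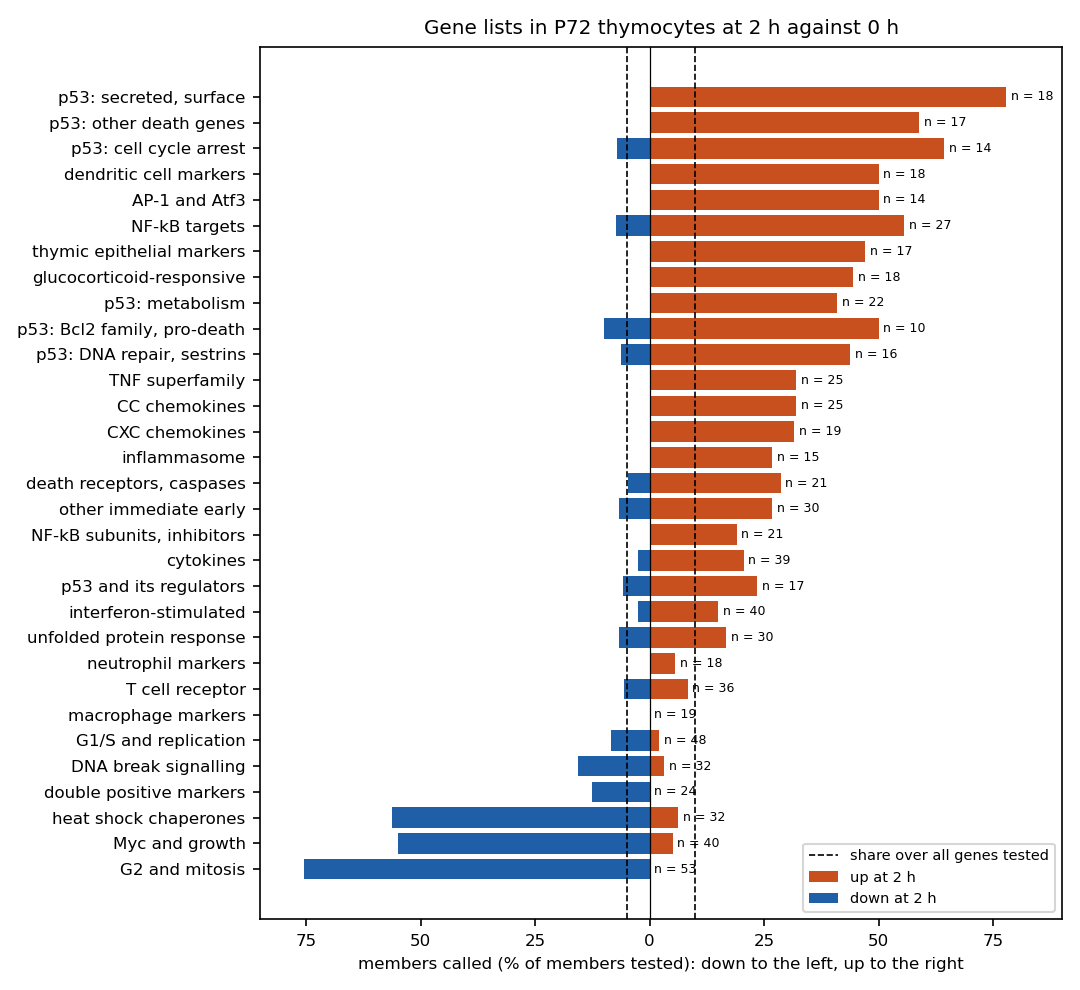
Percentage of tested members that fell (bars to the left) and rose (bars to the right) at 2 h against 0 h in 31 gene lists. The dashed lines mark the percentages of all genes, 4.95% down and 9.8% up, and the mitosis, growth and chaperone lists reach far to the left while p53 target lists reach to the right.

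Immediate early transcription factors of the AP-1 and ATF families rose in 7 of 14 cases and 0 fell (limma, 1 at an unadjusted p under 0.05), with a median of 0.49. Atf3, a stress-induced factor, stood at -0.68, -1.01, -1.09 and -1.20 at 2 h, against -4.86, -3.47, -3.88 and -4.17 at 0 h, and rose by 3.1 ± 0.21 (adjusted p = 1.25e-09). Fos stood at -1.41, -1.85, -1.17 and -1.61 at 2 h, against -3.91, -4.0, -3.87 and -3.94 at 0 h, and rose by 2.42 ± 0.21 (adjusted p = 8.6e-08). Jun, its partner in AP-1, stood at -1.37, -1.66, -1.23 and -1.26 at 2 h, against -3.02, -2.95, -2.96 and -3.1 at 0 h, and rose by 1.63 ± 0.17 (adjusted p = 1.3e-06). No array crossed between the times in these 3 genes, and Atf3 was lowest on replicate 1 of the 0 h arrays. Fosl2 rose by 1.77, or 1.03 by a second probe, and Junb, already bright at 0 h, by 0.37. The early growth response and Nr4a genes, which report T cell receptor signals, were mostly not called. Of 9 genes 1 (11.1%) rose, beside 9.8% of all genes, and 0 fell (limma, 1 at an unadjusted p under 0.05). Egr1 stood at 2.67, 2.47, 2.63 and 2.77 at 2 h, against 2.73, 2.64, 2.54 and 2.53 at 0 h, with a change of 0.03 ± 0.11 (adjusted p = 0.892). The 1 rise was that of Nr4a2 (0.51), which ended without any 1 of 5 arrays, for example at 0.40 (adjusted p = 0.101) without replicate 1 of the 2 h arrays. Among other immediate early genes 8 of 30 rose and 2 fell, with Ier5l at 2.64, Ier3 at 2.51, the phosphatase Dusp1 at 0.86 and the factor Klf4 at 0.85. The call ended for Fosl2 (0.72), Junb (0.38), Nr4a2 (0.39) and Ier3 (0.84) with normexp, Nr4a2 (0.40) with quantile normalization, Junb (0.16) and Nr4a2 (0.30) with median centring, and Nr4a2 (0.32) with the authors' values. With normexp the AP-1 and ATF genes that rose numbered 4 and the other immediate early genes that rose numbered 3, and with median centring the other immediate early genes that rose numbered 5 and those that fell 5.

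The components of the NF-kB pathway moved little, and its known target genes more often. Of the subunits, kinases and inhibitors of NF-kB 4 of 21 rose and 0 fell (limma, 0 at an unadjusted p under 0.05), with a median of 0.07. Nfkbia, the inhibitor IkB-alpha that NF-kB itself induces, stood at 5.96, 5.89, 6.00 and 5.83 at 2 h, against 5.84, 5.86, 5.83 and 5.87 at 0 h, with a change of 0.07 ± 0.10 (adjusted p = 0.693). Tnfaip3 (A20), a deubiquitinase that limits the pathway, stood at 3.87, 3.98, 3.88 and 3.95 at 2 h, against 3.53, 3.46, 3.37 and 3.22 at 0 h, and rose by 0.53 ± 0.10 (adjusted p = 0.00191). Cyld, another deubiquitinase, stood at 0.94, 0.83, 0.84 and 0.83 at 2 h, against 0.59, 0.39, 0.43 and 0.40 at 0 h, and rose by 0.41 ± 0.07 (adjusted p = 0.000664). Nfkbia overlapped between the times and the other genes did not. Relb rose by 0.45 and the kinase Ikbke by 0.47, and both calls ended without single arrays, at 0.35 (adjusted p = 0.147) without replicate 1 of the 0 h arrays for Relb and at 0.41 (adjusted p = 0.0572) without replicate 4 of the 0 h arrays for Ikbke. Under normexp and the other scalings this median was -0.14 to 0.08, and 2 other probes of Cyld changed by 0.13 and -0.11. Tnf, the cytokine, stood at -2.16, -2.52, -2.23 and -2.08 at 2 h, against -2.45, -2.63, -1.70 and -1.90 at 0 h, with a change of -0.08 ± 0.19 (adjusted p = 0.815). Tnfaip3 (0.45), Cyld (0.33), Relb (0.42) and Ikbke (0.45) with normexp, and Tnfaip3 (0.32), Cyld (0.20), Relb (0.24) and Ikbke (0.26) with median centring lost the call. With normexp the NF-kB components that rose numbered 0, and with median centring the NF-kB components that rose numbered 0.

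Of 27 known NF-kB targets 15 rose and 2 fell, with a median of 0.60, or 0.22 with genes not above background at their bound or at 0, and 10 rose without replicate 1 of the 0 h arrays. Ier3, an early response gene, stood at -2.77, -3.16, -2.59 and -2.93 at 2 h, against -5.89, -5.47, -5.11 and -5.02 at 0 h, and rose by 2.51 ± 0.18 (adjusted p = 2.53e-09). Icam1, an adhesion molecule, stood at 2.32, 2.31, 2.13 and 2.22 at 2 h, against 1.39, 1.81, 1.43 and 1.44 at 0 h, and rose by 0.73 ± 0.12 (adjusted p = 0.00047). Vcam1, another adhesion molecule, stood at 2.06, 1.98, 2.01 and 1.79 at 2 h, against 0.52, 1.17, 1.26 and 1.06 at 0 h, and rose by 0.96 ± 0.18 (adjusted p = 0.00131). No overlap between the times was seen in these 3 genes, and the lowest 0 h array was replicate 1 in all of them. The macrophage growth factor Csf1 rose by 1.36 and the co-stimulatory molecule Cd80 by 2.49. An NF-kB site was found in 8.55% of the promoters of genes that rose, beside 8.21% of those of all tested genes. Calls were lost for Csf1 (0.64) and Cd80 (0.86) with normexp. With normexp the NF-kB targets that rose numbered 5.

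Chemokines, which attract leukocytes, rose in part, mostly at dim levels. Of 25 CC chemokines and receptors 8 rose and 0 fell (limma, 1 at an unadjusted p under 0.05), with a median of 0.51, and of 19 CXC genes 6 rose and 0 fell (limma, 0 at an unadjusted p under 0.05), with a median of 0.86. The CXC median was 0.51 with genes not above background at their bound or at 0, and 0.21 to 0.66 under normexp and the other scalings. Ccl2 stood at -1.59, -1.15, -0.66 and -1.24 at 2 h, against -5.56, -4.11, -4.61 and -5.09 at 0 h, and rose by 3.68 ± 0.30 (adjusted p = 2.43e-08). Ccl7 stood at -2.32, -2.44, -2.11 and -2.66 at 2 h, against -7.68, -5.43, -5.82 and -6.64 at 0 h, and rose by 4.01 ± 0.34 (adjusted p = 5.34e-08), with all 4 arrays above background at 2 h and 1 of 4 at 0 h. Ccl3 stood at -2.69, -2.37, -3.02 and -3.37 at 2 h, against -5.12, -5.96, -5.97 and -5.57 at 0 h, and rose by 2.79 ± 0.28 (adjusted p = 6.17e-07), with the same numbers of arrays above background. Each of the 3 separated the times, and replicate 1 of the 0 h arrays was the lowest for Ccl2 and Ccl7. Ccl12 rose by 2.28, Ccl4 by 1.04 and Cxcl16 by 0.87. Cxcl1, a neutrophil attractant, was called (adjusted p = 0.00834) but was not well above background on any array at either time, so no fold is given. The thymic chemokine Ccl25 rose by 0.92, with 0.35 and 1.05 from its other probes, and Cxcl10 by 1.16, and without replicate 1 of the 0 h arrays these changes were 0.69 (adjusted p = 0.0778) and 0.91 (adjusted p = 0.0641). Without that array 5 CC and 4 CXC genes rose. Ccl25 is also a marker of thymic epithelium, whose markers moved with it as given below. The threshold was missed by Ccl3 (0.92), Ccl4 (0.76), Cxcl1, Ccl25 (0.88) and Cxcl10 (0.84) with normexp, Cxcl1 with quantile normalization, Ccl25 (0.71) with median centring, and Cxcl1 with the authors' values. With normexp the CC genes that rose numbered 3 and the CXC genes that rose numbered 1, with quantile normalization the CXC genes that rose numbered 3, with median centring the CC genes that rose numbered 5, and with the authors' values the CXC genes that rose numbered 3.

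Among interleukins and their receptors 8 of 39 genes rose and 1 fell, with a median of 0.24, or 0.11 with genes not above background at their bound or at 0. Il1b stood at -0.61, -0.79, -0.45 and -0.86 at 2 h, against -4.32, -3.44, -3.13 and -3.21 at 0 h, and rose by 2.85 ± 0.30 (adjusted p = 1.36e-06). Il4 stood at -1.48, -1.06, -1.89 and -1.61 at 2 h, against -3.54, -2.63, -3.03 and -3.29 at 0 h, and rose by 1.61 ± 0.24 (adjusted p = 9.23e-05). The 2 h arrays were above the 0 h arrays in both genes. Il1rn, the natural antagonist of interleukin 1, rose by 1.30. Il6 was well above background on 1 array at 2 h and on none at 0 h, which put it at least 1.05-fold higher (adjusted p = 0.00047). Of 25 TNF family ligands and receptors 8 rose and 0 fell (limma, 5 at an unadjusted p under 0.05), with a median of 0.16, and 4 rose without replicate 1 of the 0 h arrays. Tnfsf8 (CD30 ligand) stood at -0.85, -0.80, -0.95 and -0.89 at 2 h, against -3.41, -2.94, -3.12 and -3.09 at 0 h, and rose by 2.26 ± 0.19 (adjusted p = 3.59e-08). Inflammasome genes rose in 4 of 15 cases, and in 2 without that array. Casp4, an inflammatory caspase, stood at 0.24, 0.50, 0.14 and 0.22 at 2 h, against -1.83, -0.41, -0.58 and -1.13 at 0 h, and rose by 1.26 ± 0.23 (adjusted p = 0.000906). Casp1, the caspase that matures interleukin 1 beta, rose by 0.59, and its change was 0.39 (adjusted p = 0.141) without replicate 1 of the 0 h arrays. The call ended for Il6 and Casp1 (0.50) with normexp, Casp1 (0.38) with median centring, and Il6 and Casp1 (0.50) with the authors' values. With normexp the interleukin genes that rose numbered 3, the TNF family genes that rose numbered 3 and the inflammasome genes that rose numbered 2, with quantile normalization the TNF family genes that rose numbered 4, with median centring the interleukin genes that fell numbered 7, the TNF family genes that rose numbered 4 and those that fell 4 and the inflammasome genes that rose numbered 2, and with the authors' values the interleukin genes that rose numbered 5 and the TNF family genes that rose numbered 4.

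Interferon-stimulated genes rose in 6 of 40 cases (15%) and 1 fell (2.5%), with a median of 0.11. The shares of all genes were 9.8% up and 4.95% down. The antiviral GTPase gene Mx1 stood at -2.21, -1.91, -1.94 and -2.31 at 2 h, against -3.53, -2.90, -3.12 and -3.23 at 0 h, and rose by 1.10 ± 0.18 (adjusted p = 0.00022). Mx2 stood at 1.20, 0.99, 0.78 and 0.96 at 2 h, against -0.11, 0.34, -0.11 and -0.19 at 0 h, and rose by 1.00 ± 0.23 (adjusted p = 0.00657). Neither gene overlapped between the times. Gbp3, a guanylate-binding protein, rose by 0.70 and the kinase Eif2ak2 by 0.37. Ifi202b rose by 2.00, was well above background on 3 arrays at 2 h and 1 at 0 h, and had a change of 1.55 (adjusted p = 0.0572) without replicate 1 of the 0 h arrays. Genes induced by glucocorticoids, the stress steroids that also kill thymocytes, rose in 8 of 18 cases and 0 fell (limma, 0 at an unadjusted p under 0.05), with a median of 0.38. Mt2, a metallothionein, stood at 1.60, 1.4, 1.78 and 1.47 at 2 h, against 0.04, 0.65, 0.30 and 0.20 at 0 h, and rose by 1.27 ± 0.15 (adjusted p = 9.95e-06). Ddit4, an inhibitor of mTOR signalling and also a p53 target, stood at 6.99, 6.96, 7.16 and 6.75 at 2 h, against 6.26, 6.30, 5.98 and 5.82 at 0 h, and rose by 0.87 ± 0.19 (adjusted p = 0.00379). The times were apart in both genes. Mt1 rose by 1.35, or 2.35 by a second probe, and Tgm2, a transglutaminase, by 1.03, and Pdk4 was at least 1.89-fold higher, with 3 arrays above background at 2 h and none at 0 h. Of 30 genes of the unfolded protein and integrated stress responses 5 (16.7%) rose and 2 (6.67%) fell, with Cebpb at 1.01 and the kinase Eif2ak3 (PERK) at 0.68. Of 19 clock genes 4 rose, with Bhlhe40 at 0.86. Mx1 (0.73), Gbp3 (0.58), Eif2ak2 (0.31), Ifi202b (0.60), Ddit4 (0.84), Pdk4, Eif2ak3 (0.63) and Bhlhe40 (0.54) with normexp, Ifi202b (1.67) with quantile normalization, Eif2ak2 (0.16) and Eif2ak3 (0.47) with median centring, and Ifi202b (0.53) and Pdk4 with the authors' values lost the call. With normexp the interferon-stimulated genes that rose numbered 1, the glucocorticoid-induced genes that rose numbered 4, the stress response genes that rose numbered 2 and the clock genes that rose numbered 1, and with median centring the stress response genes that rose numbered 2 and those that fell 6.

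Genes of the thymocytes themselves are given beside the shares of all genes, 9.8% up and 4.95% down. Of 24 double positive markers 3 (12.5%) fell and 0 rose (limma, 1 at an unadjusted p under 0.05), with a median of -0.04. Of 36 genes of T cell receptor signalling 3 (8.33%) rose and 2 (5.56%) fell, with a median of -0.06. Ptcra, the pre-T cell receptor alpha chain, stood at 1.00, 1.28, 1.20 and 1.36 at 2 h, against 1.91, 1.84, 1.98 and 2.44 at 0 h, and fell by 0.83 ± 0.13 (adjusted p = 0.000121). Gata3, a T lineage factor, stood at 2.69, 2.46, 2.62 and 2.76 at 2 h, against 3.14, 3.17, 3.18 and 3.34 at 0 h, and fell by 0.57 ± 0.09 (adjusted p = 0.000239). Cd2, an adhesion molecule, stood at 2.24, 2.32, 2.06 and 2.28 at 2 h, against 2.74, 2.84, 2.56 and 2.74 at 0 h, and fell by 0.50 ± 0.09 (adjusted p = 0.000802). The 2 h arrays were below the 0 h arrays in all 3. Lef1 fell by 0.30, a call that ended without any 1 of the 8 arrays, for example at -0.26 (adjusted p = 0.109) without replicate 4 of the 0 h arrays. Ptpn22, a phosphatase that limits receptor signals, stood at 3.69, 3.73, 4.01 and 3.67 at 2 h, against 2.81, 2.74, 3.01 and 2.79 at 0 h, and rose by 0.94 ± 0.16 (adjusted p = 0.000445). Of 24 genes of double negative thymocytes and the Notch pathway 4 (16.7%) rose and 1 (4.17%) fell. Notch1, itself known as a p53 target, stood at 1.37, 1.38, 2.11 and 1.91 at 2 h, against 0.24, 0.01, 0.89 and 1.31 at 0 h, and rose by 1.08 ± 0.26 (adjusted p = 0.00762), and the factor Erg rose by 1.68. Gfi1, a repressor, fell by 0.55. Calls were lost for Cd2 (-0.54) and Lef1 (-0.34) with normexp, Lef1 (-0.21) with quantile normalization, and Lef1 (-0.22) with the authors' values. With normexp the receptor signalling genes that rose numbered 1, and with median centring the double positive markers that fell numbered 5, the receptor signalling genes that rose numbered 1 and those that fell 8 and the double negative and Notch genes that fell numbered 6.

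Markers of other cells that a thymus preparation can hold were examined beside these groups, and their part in the results above was not tested. Of 18 dendritic cell markers 9 rose and 0 fell (limma, 0 at an unadjusted p under 0.05), with a summed level of 65.2 to 75.2 times the 75th percentile at 2 h and 41.8 to 59.2 times at 0 h. Cd83, a marker of activated dendritic cells, stood at 2.09, 1.87, 1.81 and 2.29 at 2 h, against 0.27, 1.70, 1.03 and 0.97 at 0 h, and rose by 1.02 ± 0.20 (adjusted p = 0.00174). The class II gene H2-Aa stood at 0.93, 1.13, 0.90 and 0.74 at 2 h, against -0.24, 0.65, 0.19 and -0.30 at 0 h, and rose by 0.85 ± 0.20 (adjusted p = 0.00706). The 2 h arrays were above the 0 h arrays, by little over replicate 2, in both genes. The class II genes H2-Eb1 and Cd74 rose by 0.88 and 0.80 and the integrin Itgax by 0.82, and for Cd74 the change was 0.72 (adjusted p = 0.0572) without replicate 1 of the 0 h arrays. Of 17 thymic epithelial markers 8 rose and 0 fell (limma, 0 at an unadjusted p under 0.05), with a summed level of 40.7 to 58.6 times at 2 h and 14 to 33.3 times at 0 h. The keratin Krt8 stood at 2.65, 2.51, 2.17 and 2.87 at 2 h, against 0.54, 1.85, 1.30 and 1.5 at 0 h, and rose by 1.25 ± 0.23 (adjusted p = 0.000862). Its partner Krt18 stood at 3.68, 3.34, 3.07 and 3.71 at 2 h, against 1.46, 2.69, 2.26 and 2.58 at 0 h, and rose by 1.20 ± 0.23 (adjusted p = 0.00151). Aire, the regulator of medullary epithelium, rose by 1.34, and its change was 1.28 (adjusted p = 0.0564) without replicate 1 and 1.31 (adjusted p = 0.0522) without replicate 4 of the 2 h arrays. Replicate 1 of the 0 h arrays had the lowest summed level of both lists, and without it 5 dendritic and 4 epithelial markers rose. The threshold was missed by H2-Eb1 (0.87), Cd74 (0.78) and Aire (1.10) with normexp, and Cd74 (0.59) and Itgax (0.61) with median centring. With normexp the dendritic cell markers that rose numbered 3 and the epithelial markers that rose numbered 2, and with median centring the dendritic cell markers that rose numbered 3 and the epithelial markers that rose numbered 4.

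Macrophage markers changed in 0 of 19 cases (limma, 2 higher and 0 lower at an unadjusted p under 0.05), with a summed level of 56.1 to 72.6 times the 75th percentile at 2 h and 34.8 to 65.1 times at 0 h. Erythroid markers changed in 0 of 8 (0 at an unadjusted p under 0.05), with sums of 61.8 to 322 times at 2 h and 156 to 292 times at 0 h, and adipocyte markers in 0 of 8 (3 higher and 0 lower at an unadjusted p under 0.05), with sums of 2.43 to 2.94 times at 2 h and 0.851 to 2.94 times at 0 h. Of 18 neutrophil markers 1 rose, with sums of 43.1 to 79 times at 2 h and 38 to 67.8 times at 0 h, and of 20 markers of fibroblasts and endothelium 5 rose and 1 fell, with sums of 192 to 245 times at 2 h and 190 to 250 times at 0 h. The 1 of 16 B cell markers that rose was Spib, an Ets factor shared with plasmacytoid dendritic cells, which stood at 0.57, 0.85, 0.62 and 0.58 at 2 h, against -1.74, -0.94, -1.47 and -1.52 at 0 h, and rose by 2.07 ± 0.21 (adjusted p = 7.89e-07). The sums of the B cell list were 11.9 to 14.8 times at 2 h and 11.2 to 16.1 times at 0 h. Of 11 NK cell markers 1 (9.09%) rose and 1 (9.09%) fell, beside 9.8% and 4.95% of all genes, with sums of 8.59 to 9.54 times at 2 h and 10.3 to 12.9 times at 0 h. The gene that fell was Gzma, a granule protease, which stood at 0.80, 1.04, 1.12 and 1.17 at 2 h, against 2.38, 2.21, 2.48 and 2.92 at 0 h, and fell by 1.47 ± 0.21 (adjusted p = 6.21e-05). The 8 arrays separated the times for both Spib and Gzma. With normexp the fibroblast and endothelial markers that rose numbered 0, with quantile normalization the fibroblast and endothelial markers that rose numbered 1, with median centring the fibroblast and endothelial markers that rose numbered 3, and with the authors' values the fibroblast and endothelial markers that rose numbered 1.

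How far these changes go with p53 was examined against the p53-/- thymocytes, whose single 2 h array was assumed to vary like the other groups. The comparison uses the same P72 arrays as the changes above, and all 3 p53-/- arrays were low for Xist. The p53-/- arrays came from a separate mouse line and were on other slides and another scan day than the P72 arrays. Effects of line or run and of the loss of p53 cannot be told apart. The response in P72 was higher than in p53-/- for 351 genes (1.77%) and lower for 291 (1.47%), while p53-/- thymocytes by themselves had 167 genes up (0.844%) and 50 down (0.253%). The difference of the responses was 4.99 ± 0.20 (adjusted p = 1.67e-13) for Phlda3, whose change was 0.10 in p53-/-. It was 3.41 ± 0.17 (adjusted p = 6.5e-12) for Bbc3 and 1.93 ± 0.21 (adjusted p = 3.24e-06) for Bax, with p53-/- changes of 0.02 and 0.10. For Cdkn1a it was 3.42 ± 0.47 (adjusted p = 8.83e-05), with a p53-/- change of 0.79, and for Gdf15 3.13 ± 0.53 (adjusted p = 0.000919), with a p53-/- change of 1.27. Fos and Atf3 differed as well, by 2.47 ± 0.42 (adjusted p = 0.000951) and 3.37 ± 0.40 (adjusted p = 1.3e-05), and so did Ccl2, by 3.57 ± 0.57 (adjusted p = 0.000608). With normexp the differences of Fos and Ccl2 were 1.64 (adjusted p = 0.242) and 2.06 (adjusted p = 0.127). Of the lists, 9 of 17 other death genes, 7 of 18 secreted and surface genes and 3 of 10 Bcl2 relatives rose more in P72. Of 40 interferon-stimulated genes 0 rose more in P72 than in p53-/- (limma, 2 at an unadjusted p under 0.05), beside 1.77% of all genes. A count of 0 of 40 is near that share. In p53-/- Mx1 changed by 0.67 and Mx2 by 0.84. Without replicate 1 of the p53-/- 0 h arrays 178 genes were higher and 128 lower, and without replicate 2 of them 208 and 130, whereas without replicate 2 of the P72 0 h arrays 554 were higher.

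Lists with falls in P72 were compared in the same way. With 1 p53-/- array at 2 h, a gene that was not called could still differ. Only 4 of 48 replication genes had fallen in P72, and that list had a median change of 0.70 in p53-/-. Whether the falls need p53 was not tested. Of 53 mitosis genes 0 differed between the responses (limma, 0 higher and 16 lower at an unadjusted p under 0.05), beside 1.77% of all genes higher and 1.47% lower. The list had a median change of -0.66 in P72 and -0.17 in p53-/-. Ccnb1 changed by -1.43, Cdc20 by -1.03 and Cenpf by -1.11 in p53-/-, and the differences were -0.73 ± 0.34 (adjusted p = 0.277), -0.12 ± 0.30 (adjusted p = 0.88) and -0.33 ± 0.30 (adjusted p = 0.625). By comparison, 24 of 48 replication genes were lower in the P72 response, with list medians of -0.16 in P72 and 0.70 in p53-/-. Ung differed by -1.77 ± 0.28 (adjusted p = 0.00059), with a p53-/- change of 0.58, and Orc1 by -1.32 ± 0.23 (adjusted p = 0.00164), with a p53-/- change of 0.84. Of 40 growth genes 12 were lower in the P72 response, with medians of -0.35 in P72 and 0.21 in p53-/-. Myc changed by 0.97 in p53-/-, a difference of -2.69 ± 0.64 (adjusted p = 0.0187), and Gnl3 by 0.58, a difference of -1.47 ± 0.19 (adjusted p = 3.56e-05). Of 32 chaperones 2 were lower and 2 higher in the P72 response, among them Hspd1, which differed by -1.07 ± 0.22 (adjusted p = 0.00742), with a p53-/- change of 0.22. Gzma was also lower in the P72 response, by -3.03 ± 0.40 (adjusted p = 4.44e-05). With normexp the differences of Orc1 and Hspd1 were -0.91 (adjusted p = 0.424) and -1.04 (adjusted p = 0.327), and that of Myc was -2.67 (adjusted p = 0.0687) without replicate 1 and -2.71 (adjusted p = 0.0616) without replicate 2 of the p53-/- 0 h arrays.

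**Figure D4:**
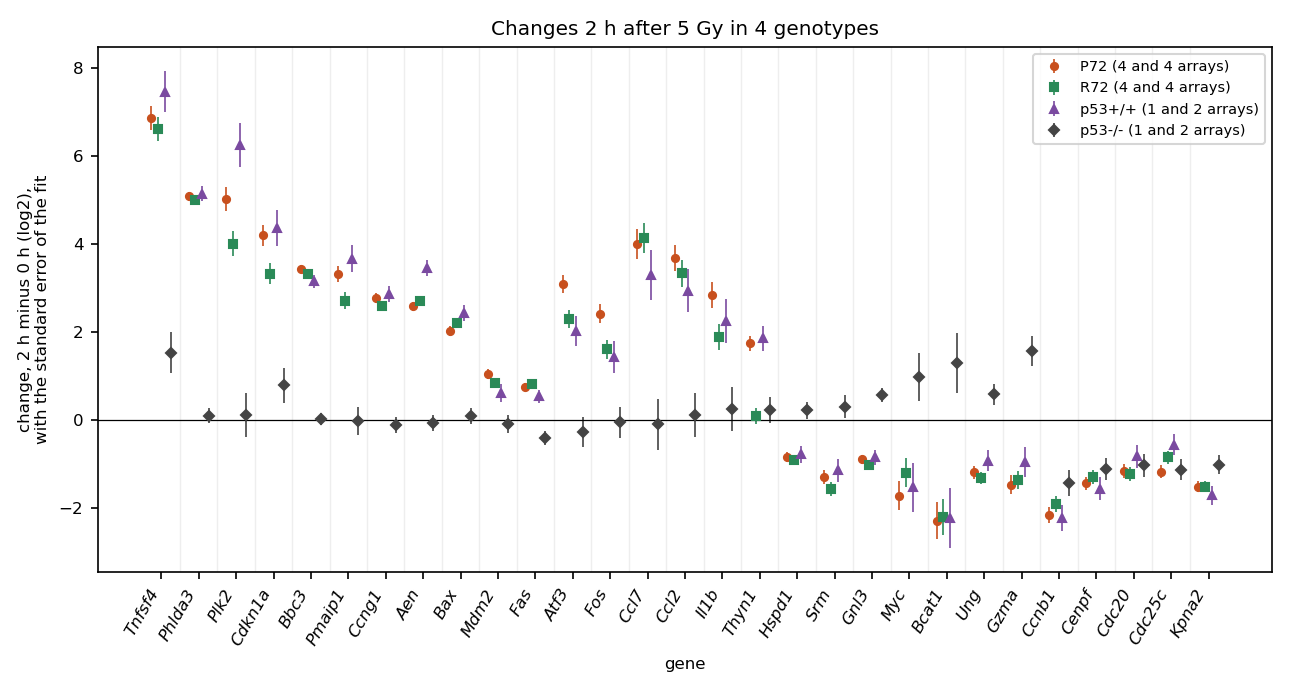
Change at 2 h against 0 h (log2) in P72, R72, p53+/+ and p53-/- thymocytes for 29 genes, with bars for limma's standard error. P72 and R72 have 4 arrays at each time and p53+/+ and p53-/- have 1 at 2 h and 2 at 0 h, and Phlda3, Bbc3 and Bax lie near 0 in p53-/- while Ccnb1 and Cdc20 are below 0 in every genotype.

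The codon 72 genotypes differed in the 2 h response of 1 gene of 19790 (0.00505%), and 0 genes (0%) were lower in P72 (limma, 672 higher and 241 lower at an unadjusted p under 0.05). That gene was Thyn1, thymocyte nuclear protein 1, whose probe lies on chromosome 9, 26890259 to 26890318 (build mm7 of the files). It stood at 5.73, 5.87, 5.92 and 6.22 at 2 h, against 4.01, 4.13, 4.31 and 4.33 at 0 h in P72, and rose by 1.74 ± 0.17 (adjusted p = 5.72e-07). In R72 it averaged 4.32 at 2 h and 4.22 at 0 h, so the change was 0.09 ± 0.17, and the difference of the responses was 1.65 ± 0.25 (adjusted p = 0.0328). In p53+/+ it stood at 6.18 at 2 h and averaged 4.33 at 0 h, and in p53-/- at 4.45 at 2 h and 4.22 at 0 h. P72 and p53+/+ were thus high at 2 h, and R72 and p53-/- near the 0 h levels. A second probe of Thyn1 changed by -0.24 in P72, so the probes disagree. The difference was past the threshold without replicate 1 of the P72 2 h arrays, replicate 1 of the R72 0 h arrays or replicate 3 of the R72 2 h arrays, and it was not without any other 1 of the 16 arrays, with adjusted p up to 0.132. It was 1.45 (adjusted p = 0.307) with normexp and 1.56 (adjusted p = 0.595) after centring on the median. R72 thymocytes had 1251 genes up (6.32%) and 1387 down (7.01%) at 2 h, and p53+/+ thymocytes 659 up (3.33%) and 508 down (2.57%). The R72 changes of 4 of the p53 targets described above were 5.01 for Phlda3, 3.33 for Bbc3, 2.21 for Bax and 2.60 for Ccng1. Krt8 changed by 1.25 in P72 and 0.00 in R72, a difference of 1.25 ± 0.32 (adjusted p = 0.934), and Casp4 by 1.26 in P72 and 0.26 in R72, a difference of 1.00 ± 0.33 (adjusted p = 0.934).

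By 4 h many of these changes had moved on. At 4 h 4336 genes (21.9%) were higher and 2145 (10.8%) lower than at 2 h in P72, and against 0 h 7189 (36.3%) were higher and 4146 (20.9%) lower. Rises made up 66.9% of the calls between 4 h and 2 h here, but 45.9% after normexp background correction, 50.4% after quantile normalization, 53.6% with the authors' values and 19.4% after centring on the median. Among death and arrest genes the change from 2 h to 4 h was -0.10 ± 0.09 (adjusted p = 0.368) for Bbc3, 0.15 ± 0.11 (adjusted p = 0.298) for Bax and 0.27 ± 0.24 (adjusted p = 0.416) for Cdkn1a, none past the threshold. Other p53 targets fell between 2 h and 4 h, with changes of -0.45 ± 0.12 for Mdm2, -0.51 ± 0.11 for Ccng1, -0.54 ± 0.07 for Ppm1d and -0.59 ± 0.10 for Phlda3. Chemokine and cytokine genes rose further, Il1b by 2.56 ± 0.30, Ccl7 by 2.35 ± 0.34 and Ccl2 by 2.20 ± 0.30. Cxcl1 was well above background on all 4 arrays at 4 h and on none at 2 h, and was then at least 8.77-fold higher (adjusted p = 6.77e-07). In the lists 15 of 25 CC chemokine genes, 19 of 27 NF-kB targets and 9 of 18 secreted and surface genes were higher at 4 h than at 2 h. Tnf, which had not been called at 2 h, was higher at 4 h by 1.54 ± 0.19, and Nfkbia by 0.40 ± 0.10. Under normexp Nfkbia changed by 0.25 (adjusted p = 0.33), and after centring on the median by -0.02 (adjusted p = 0.92). With quantile normalization Mdm2 changed by -0.35 (adjusted p = 0.0546), and after centring on the median Bbc3 changed by -0.52 (adjusted p = 0.00101). Replication genes fell in 45 of 48 cases between 2 h and 4 h, with Ung lower by a further 1.04 ± 0.15. Growth genes fell further in 25 of 40 cases and chaperones in 18 of 32, with Hsph1 lower by 1.25 ± 0.27. Mitosis genes fell further in 5 of 53 cases and rose in 2, and Ccnb1 changed by 0.20 ± 0.18 (adjusted p = 0.399). The 2 h arrays enter both comparisons.

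**Figure D5:**
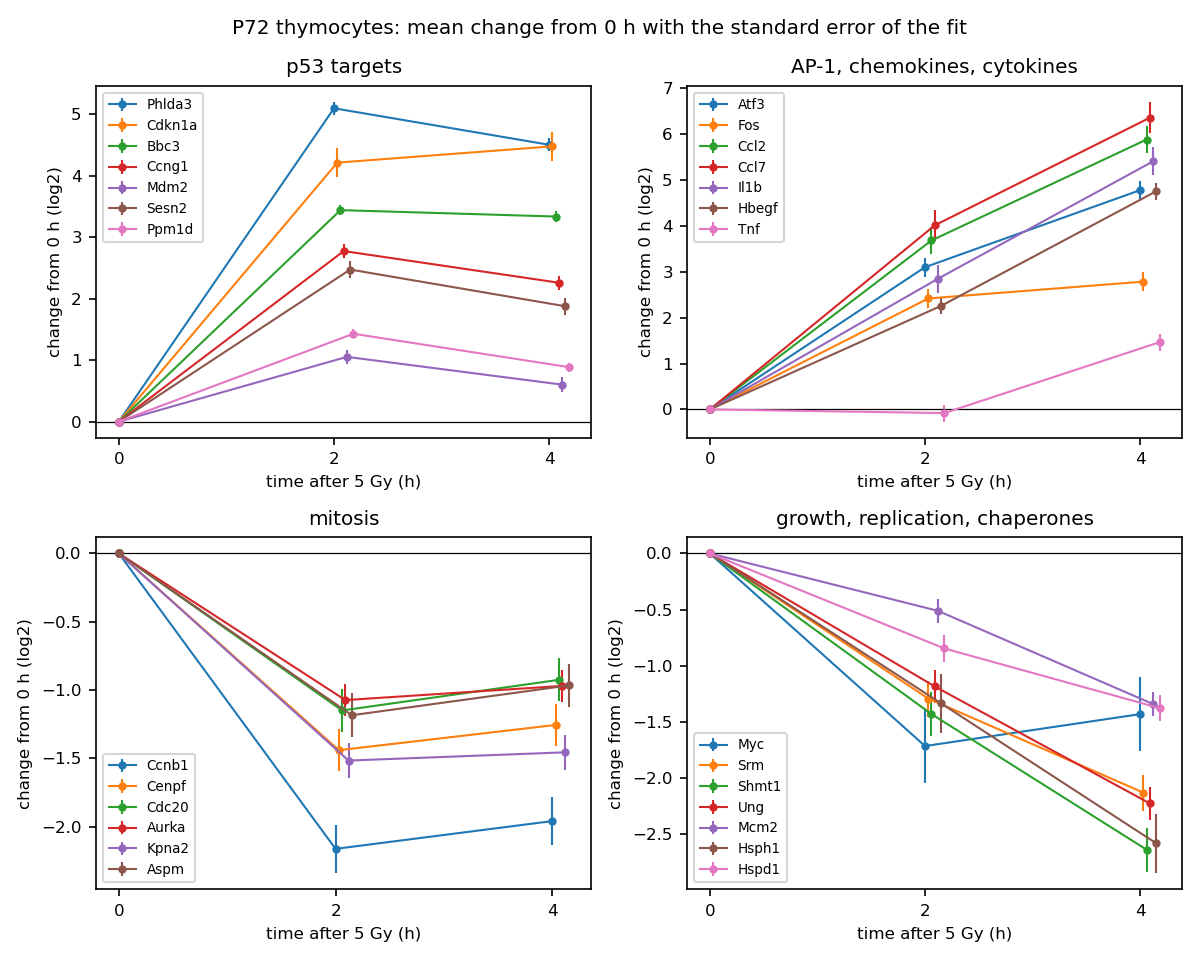
Change from 0 h (vertical axis, log2, with limma's standard error) at 0, 2 and 4 h in P72 thymocytes, 4 arrays per time, in 4 panels of genes. Mdm2 and Ccng1 turn down after 2 h, Ccl2 and Il1b go on rising, and Mcm2 and Ung fall further by 4 h.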

How the data were processed

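RNA of thymocyte pools was hybridised to 1-colour Agilent mouse arrays, 32 in all. The authors deposited scanner files of fluorescence intensity from Feature Extraction 9.5.3.1, per the file headers, which place probes on build mm7. They also deposited a table of log2 values, whose scaling is not given in the sources used here and which served as an alternative.

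From the background-corrected intensity the log2 value minus the 75th percentile of the array was computed, without 1639 control spots and without values with an outlier flag (0.223%), averaging spots of 1 probe. A probe stayed in if at least 4 of the 32 arrays called it well above background, and the brightest probe stood for its gene, which left 19791 genes. Of 41174 probes, 23082 matched a RefSeq accession and took its current symbol. Comparisons used limma 3.58.1 in R 4.3.3 on the 24 P72 and R72 arrays with 1 mean for each of 6 groups, or on all 32 arrays with 12 groups for the difference from p53-/-, with Benjamini-Hochberg adjustment and a threshold of 0.05. The count of 19790 is of genes with a value in both groups. Per the labels, replicates are independent experiments. The precision is limited by the number of arrays, 4 a group.

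Where a gene was not well above background on any array of a group, the fold is a lower bound, "at least", against, for each array, the dimmest signal of any probe called above background, or the probe's own where higher. Fitted values of such genes are drawn in figures and listed among differences between genotypes, where they measure no size. Named genes were a fixed set of p53 targets, inflammatory and cell cycle genes, the 25 that rose and the 25 that fell most with no overlap, up to 6 members per list by smallest p with all members of lists of 12 or fewer, and the 10 highest and 10 lowest of each difference of responses. Exceptions are stated, and a few single genes are not reported here. The members and lists were chosen with earlier results of these data known.

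On simulated data of 19791 genes for the comparison of 2 h with 0 h, with 200 genes changed, 38.8% of those changed 1.5-fold, 70.1% of those changed 2-fold and 93.9% of those changed 4-fold were recovered, and 10 of 145 calls were false. Whether these rates hold for the arrays themselves, where 1939 genes were called up and 979 down, was not tested. Alternatives covered background correction, scaling, the authors' log2 values, the filter, the choice of probe, the arrays fitted, slide, scan day and replicate blocks, and leaving out each array.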

Additional observations from a re-analysis of the deposited data

Results flagged for a closer look

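Single arrays stood apart from the other 3 of their group in 20 of 402 groups of 4 arrays examined (log2 levels of named genes at 2 h or 0 h), and chance alone gives about 1 in 20, or 20.1. At 2 h, replicate 1 was apart for Aurka at 2.73, with the others at 3.04 to 3.07, for Dctd at -5.30, with the others at -4.80 to -4.71, for Nbn at 1.13, with the others at 1.31 to 1.35, and for Cyld at 0.94, with the others at 0.83 to 0.84. Replicate 2 was apart for Ung at 0.34, with the others at 0.28 to 0.29. Replicate 3 was apart for Apaf1 at 3.33, with the others at 2.75 to 2.81, for Bcl2l1 at 1.44, with the others at 1.70 to 1.74, for Ppm1d at 1.39, with the others at 1.33 to 1.34, for Chek1 at -0.64, with the others at -1.07 to -1.02, and for Cep89 at 0.54, with the others at 0.69 to 0.72. Replicate 4 was apart for Bcl2l2 at -0.72, with the others at -0.95 to -0.92.

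At 0 h, replicate 1 was apart for Cyld at 0.59, with the others at 0.39 to 0.43, and for Grrp1 at -5.87, with the others at -4.26 to -4.0. Replicate 2 was apart for Icam1 at 1.81, with the others at 1.39 to 1.44, and for Mx2 at 0.34, with the others at -0.19 to -0.11. Replicate 3 was apart for Ei24 at 1.10, with the others at 1.30 to 1.32. Replicate 4 was apart for Hspd1 at 5.23, with the others at 5.03 to 5.06, for Dusp1 at 0.23, with the others at 0.02 to 0.03, for Per3 at -7.44, with the others at -6.97 to -6.89, and for Il22 at -6.59, with the others at -8.07 to -7.95.

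The responses differed between genotypes, by a test of the difference itself in limma, for 1 gene higher in P72 than in R72, Thyn1 at 1.65 on the log2 scale, and for 351 genes higher and 291 lower in P72 than in p53-/-. Fitted differences from p53-/- were high for 1700007K13Rik at 6.62, Tnfsf4 at 5.34, Phlda3 at 4.99, 2900052L18Rik at 4.99, Plk2 at 4.91, Dnm3 at 4.59, Ccn1 at 4.17, Ccl7 at 4.11, Cxcl1 at 4.07 and Pkp2 at 3.99. They were low for Slc15a2 at -8.61, Xlr3c at -6.72, Il22 at -5.58, Erc2 at -5.05, Olfr617 at -4.85, Lypd1 at -4.70, Grrp1 at -4.52, Rps6ka6 at -4.46, Aif1l at -4.0 and Bcat1 at -3.58. With normexp the call ended for every low gene but Aif1l, and for Dnm3, Ccn1, Ccl7, Cxcl1 and Pkp2. It ended for Xlr3c and Pkp2 with quantile normalization, and for Xlr3c, Lypd1, Cxcl1 and Pkp2 with the authors' values. Xlr3c and Lypd1 lost it without either p53-/- array at 0 h, and Bcat1 without replicate 1 of them. The differences listed are fitted values with no order. 1700007K13Rik, Tnfsf4, Dnm3, Ccn1, Cxcl1, Pkp2, Il22, Erc2, Olfr617 and Rps6ka6 were not well above background on any P72 array at 0 h, so their sizes were not measured. Nor was that of Lypd1, which was not well above background on any p53-/- array at 0 h. The single p53-/- array at 2 h was high for Slc15a2, which changed by -0.30 in P72 and 8.30 in p53-/-. Slc15a2 was well above background on only 1 of the 2 p53-/- arrays at 0 h. With 1 such array, a response of the genotype and a trait of that array cannot be told apart.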

How the results depend on the processing

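For the comparison of 2 h with 0 h in P72, 1939 genes rose and 979 fell as reported, and the counts were 306 up and 187 down after normexp background correction, 1138 up after quantile normalization, 1201 up and 3000 down when centred on the array median and 921 up with the authors' tabulated values. Leaving out 1 array gave 1210 to 1947 up and 607 to 838 down. For 4 h against 2 h, 4336 rose and 2145 fell, and the counts were 405 up and 477 down after normexp, 2560 up after quantile normalization, 2120 up and 8815 down when median-centred, 2557 up with the authors' values and 2764 up among genes well above background on every array, with 3010 to 4717 up and 1533 to 2001 down without 1 array. The median over all genes of this change was 0.07 as reported, -0.35 when median-centred and 0.21 after normexp. For P72 minus R72, 0 genes in place of 1 were higher under normexp, median centring or no filter, and 0 to 1 were higher and 0 lower without 1 array. For P72 minus p53-/-, 351 were higher and 291 lower, against 76 and 46 after normexp and 192 higher when median-centred, with 178 to 554 higher and 128 to 327 lower without 1 array. Higher calls made up 54.7% of these, 39.8% when median-centred and 41.5% with the authors' values. The cause of these shifts was not tested.

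With the replicate number as a block, 2218 genes rose and 1266 fell at 2 h, 4661 rose and 2569 fell between 2 h and 4 h, and the P72 response was higher than in p53-/- for 472 genes and lower for 457. Deviations of same-numbered 2 h and 0 h arrays correlated at 0.0872, 0.2025, 0.0905 and 0.1472, not all above 0.1, so the numbers were not taken to pair the arrays, although each 2 h array correlated best with its own number, a hint from the data and not the design. Scan day as a block, an alternative chosen after seeing the data, gave 2303 up and 1402 down, and slide as a block 1296 and 989. Within slides 1 and 4, 1935 and 1934 of the 1939 rises and 979 and 978 of the 979 falls kept their direction, and within each scan day all did. These genes were called on the same arrays, so this was largely set in advance and is no test of slide or scan day. Over 201 genes and 21 settings, 3897 of 4185 values kept direction and side of the threshold, 278 lost the call, 9 gained one and 1 reversed, Bak1 at 0.53 (adjusted p = 0.0273) with its probe of smallest p. Between 2 h and 4 h, Nfkbia reversed to -0.017 when median-centred.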
